A study of Mus musculus with 41 samples.

Results

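Adipocyte-restricted distal H3K18la regions are the H3K18la peaks of white adipocytes (ADIPO) that lie away from promoters and are absent from the H3K18la lists of every other profiled cell type. They were selected on measured values: a peak was kept when it overlapped, by 1 bp or more, no H3K18la peak of ESC-ser, ESC-2i, GAS, MB, MT, BMDM or PIM and no promoter, defined as 2000 bp on either side of any annotated transcription start site (TSS). Of 28212 ADIPO H3K18la peaks on chromosomes 1 to 19, 5773 met this rule (20.5%). A further 12709 peaks touched a promoter (45.05%), and 9730 were distal but shared with at least 1 other cell type (34.5%). The shared distal peaks serve as the comparison throughout, since they come from the same nuclei, antibody and peak list.

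CUT&Tag, in which an antibody steers a transposase to cut DNA beside a histone modification, was run on 8 mouse cell types. ADIPO nuclei came from white fat of 10-week-old female AdipoCre-NuTRAP mice (strain label C57BL/6), from tissue that the methods call epididymal. In NuTRAP mice Cre recombinase switches on a tag on the nuclear membrane, so that nuclei of Cre-expressing cells can be caught on streptavidin beads, and how many other nuclei stayed on the beads is not given in the sources used here. The other cell types were E14 embryonic stem cells in serum-lif (ESC-ser) or 2i-lif medium (ESC-2i), macrophages grown from bone marrow (BMDM), macrophages sorted from hind-limb muscle 2 days after ischemia (PIM), primary myoblasts (MB) and myotubes (MT), and the whole gastrocnemius (GAS). Nuclei were assayed in every case except the stem cells, which were used whole. GAS and PIM mice were female and 8 to 12 weeks old, all samples that were not stem cells carry the strain label C57BL/6, and every sample carries the treatment label control. The ADIPO H3K18la and H3K27ac lists each pool 2 samples, as do 15 of the other 22 lists, while the 3 BMDM lists, both MB lists and the H3K27ac lists of ESC-ser and PIM come from 1 sample. Because replicates were merged before peaks were called, no share has a replicate error, and 95% Wilson intervals are given that cover counting error only.

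H3K18la is a lactyl group on lysine 18 of histone H3, a modification made from lactate that is found at promoters and enhancers in use. H3K27ac marks active promoters and enhancers, H3K4me3 marks promoters, and H3K27me3 is laid down by Polycomb complexes on genes kept silent. Enhancers lie far from the gene they act on, often in clusters and often in introns, and their position differs more between cell types than that of promoters. White adipocytes store triglyceride, release fatty acids and secrete hormones, under a programme led by the nuclear receptor PPARγ and C/EBP factors and modulated by glucocorticoids and insulin.

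The cell type label was checked at promoters. All 10 adipocyte markers (Adipoq, Plin1, Pparg, Cebpa, Cidec, Lep, Retn, Cfd, Fabp4, Lpl) had both an H3K18la and an H3K27ac peak at a promoter in ADIPO. Of all 20780 protein-coding genes, 45.6% had H3K18la and 47.0% H3K27ac there. Promoter H3K18la was listed at 1 of 10 skeletal muscle markers (Acta1), 1 of 10 stem cell markers (Dppa3), 1 of 9 lymphocyte markers (Lck), 2 of 12 endothelial markers (Egfl7 and Vwf), 2 of 11 mesothelial markers (Wt1 and Krt8), 3 of 11 macrophage markers (Cd68, Lyz2 and Spi1), 4 of 12 smooth muscle and pericyte markers and 6 of 12 stromal progenitor markers, the last share being close to that of all genes. The endothelial genes Pecam1, Cdh5, Kdr and Tek, the macrophage genes Csf1r, Adgre1 and Ptprc, and the progenitor genes Pdgfrb, Dpp4 and Pi16 had neither mark at a promoter. Promoter H3K27ac was listed at 5 of 12 stromal progenitor markers, among them Pdgfra. It was also at 5 of 12 smooth muscle and pericyte markers, among them Acta2 and Tagln, and at no more than 2 markers of any other such list. The smooth muscle and pericyte markers with promoter H3K18la were Myh11, Mylk, Des and Cspg4. The progenitor markers with promoter H3K18la were Col1a1, Col1a2, Col3a1, Dcn, Lum and Cd55, and the part of such cells in the results below was not tested.

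The sequences that follow are the 300-bp windows around the point of maximum H3K18la signal of 6 regions. They are shown because each lies nearest to a gene of adipocyte identity and holds the relaxed C/EBP motif. That motif was more frequent in these regions than in restricted regions of other lineages. They are the 6 of largest maximum signal among regions near those genes that hold any of 7 adipocyte-related motifs, leaving out windows that touch an exon and those on a chromosome from which no sequence is shown here. The sequence is the + strand of mm10 (GRCm38.p6 from RefSeq), 5′ to 3′, and capitals mark the relaxed C/EBP motif TTGCNNAA on either strand.
Ebf1, chr11:45311855-45312154: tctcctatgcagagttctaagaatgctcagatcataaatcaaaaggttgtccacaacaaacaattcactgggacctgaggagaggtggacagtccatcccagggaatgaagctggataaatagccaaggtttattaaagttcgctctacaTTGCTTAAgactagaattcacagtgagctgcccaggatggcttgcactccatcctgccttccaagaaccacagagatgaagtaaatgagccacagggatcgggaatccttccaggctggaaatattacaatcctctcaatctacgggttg
Lep, chr6:29049883-29050182: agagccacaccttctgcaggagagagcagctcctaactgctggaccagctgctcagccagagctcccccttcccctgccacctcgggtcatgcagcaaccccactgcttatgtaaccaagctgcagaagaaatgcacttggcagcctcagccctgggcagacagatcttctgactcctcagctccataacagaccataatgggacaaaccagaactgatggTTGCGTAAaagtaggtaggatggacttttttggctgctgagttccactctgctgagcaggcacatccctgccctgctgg
Ebf1, chr11:44795959-44796258: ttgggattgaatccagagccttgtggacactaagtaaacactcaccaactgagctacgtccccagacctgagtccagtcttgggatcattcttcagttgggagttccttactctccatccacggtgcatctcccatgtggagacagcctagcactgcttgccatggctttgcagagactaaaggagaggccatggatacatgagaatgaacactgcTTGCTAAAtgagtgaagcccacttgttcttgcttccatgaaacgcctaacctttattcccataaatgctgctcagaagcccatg
Ebf1, chr11:44783883-44784182: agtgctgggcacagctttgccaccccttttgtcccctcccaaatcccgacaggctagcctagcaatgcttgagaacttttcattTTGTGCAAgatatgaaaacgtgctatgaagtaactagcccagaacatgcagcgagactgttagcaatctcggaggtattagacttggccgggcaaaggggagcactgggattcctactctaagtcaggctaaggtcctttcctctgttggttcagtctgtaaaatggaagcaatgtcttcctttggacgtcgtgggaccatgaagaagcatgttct
Acvr1c, chr2:58332048-58332347: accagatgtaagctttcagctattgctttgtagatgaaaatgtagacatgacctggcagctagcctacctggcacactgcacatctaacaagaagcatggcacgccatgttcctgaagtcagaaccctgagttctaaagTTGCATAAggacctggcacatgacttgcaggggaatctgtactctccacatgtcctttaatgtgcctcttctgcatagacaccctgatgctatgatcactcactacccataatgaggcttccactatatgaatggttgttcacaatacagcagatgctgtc
Tle3, chr9:61120807-61121106: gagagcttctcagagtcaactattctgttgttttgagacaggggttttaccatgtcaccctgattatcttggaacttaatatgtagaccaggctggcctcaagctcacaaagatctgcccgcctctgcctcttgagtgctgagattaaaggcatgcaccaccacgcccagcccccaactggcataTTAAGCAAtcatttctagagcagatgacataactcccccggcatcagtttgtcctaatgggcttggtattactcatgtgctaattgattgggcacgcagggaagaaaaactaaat

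The gene with most of these windows, Ebf1, encodes an early B-cell factor needed for fat cell differentiation. The regions around its 3 windows lie 398802, 113859 and 127477 bp from the nearest protein-coding TSS, the first between genes and the other 2 in an intron of Ebf1. The Lep window lies between genes in a 2881-bp region of maximum signal 186, 9311 bp from the TSS of the leptin gene. The Acvr1c window, in an intron of that activin receptor gene 6716 bp from the TSS, is the only one of the 6 without an ADIPO H3K27ac peak. The Tle3 window lies 250506 bp from the TSS of Tle3, a transcriptional cofactor of PPARγ, in an intron of the gene model Gm33914.

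The restricted regions were narrower and weaker than shared distal peaks. Their median width was 1676 bp (quartiles 1268 and 2399) against 1976.5 bp for shared distal peaks. Signal is fragment coverage that is not scaled for depth and is compared here only within the ADIPO list. Median total signal, the coverage summed over the bases of a peak, was 40569 for restricted and 53506 for shared distal peaks, and median maximum signal was 87 against 98. Restricted regions made up 59 of the 1000 and 588 of the 5000 peaks with most total signal. These values are a description, since a weak peak in ADIPO and a peak missed in another list were both part of the selection.

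The edges of the rule were as follows. The weakest restricted region had a total signal of 21530, next to the lowest value in the ADIPO list, 21529. The gap from a restricted region to the nearest H3K18la peak of another cell type had a median of 7220 bp. It was under 500 bp for 342 regions (5.92%, median total signal 36867.5) and over 10000 bp for 2413 regions (41.8%, median total signal 42138). Just outside the rule, 91 shared distal peaks (0.94%, median total signal 50775) were covered by other H3K18la lists over less than 10% of their bases. Another 192 restricted regions ended within 500 bp of a promoter edge. GAS was the list that removed most: 6711 of the 9730 shared distal peaks (68.97%) overlapped a GAS peak and 5089 (52.3%) an MT peak. Without the GAS list 1885 more peaks would have counted as restricted, whereas without the MB list 43 more would have.

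The restricted regions were spread over all 19 autosomes at 1.98 (chromosome 10) to 2.91 (chromosome 19) regions per Mb. Their share of distal ADIPO peaks ranged from 31.6% (95% interval 28.3 to 35.2) on chromosome 17 to 42.0% (38.8 to 45.4) on chromosome 9. The point of maximum signal lay in an intron for 54.7% of regions, between genes for 40.5% and in an exon for 4.87%. The whole genome is 42.2% intronic, 52.8% intergenic and 4.96% exonic by the same annotation. Shared distal peaks had nearly the same make-up, with 55.8% in introns and 40.6% between genes. Restricted regions lay further from genes: the median distance to a protein-coding TSS was 25869 bp against 20280.5 bp for shared distal peaks, and 20.1% against 12.6% were over 100 kb away.

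H3K27ac in adipocytes was present at 2540 of the 5773 restricted regions, or 44.0% (95% interval 42.7 to 45.3). Across all distal ADIPO H3K18la peaks the share was 54.1%, across shared distal peaks it was 60.2% (59.2 to 61.1) and across promoter peaks 78.4% (77.7 to 79.1). Restricted regions were thus 16.2 percentage points below shared distal ones (difference -16.2, interval -17.8 to -14.6). By bases, H3K27ac covered 38.1% of restricted, 51.2% of shared distal and 66.2% of promoter H3K18la sequence.

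The share with H3K27ac rose with H3K18la signal in both classes. Distal peaks were divided into 5 equal parts by total signal. In the lowest part, H3K27ac was listed at 12.97% of 1419 restricted regions and 22.1% of 1683 shared peaks. In the middle part the shares were 43.4% of 1271 and 54.5% of 1830. In the highest part, total signal above 113259, they were 97.1% of 759 (95.7 to 98.1) and 97.4% of 2342 (96.7 to 98.0), and the difference of -0.34 percentage points lay within the counting intervals. When peaks were divided by width instead, restricted regions stayed below shared ones in all 5 parts, with differences of -4.26 to -12.3 percentage points. Divided by maximum signal they also stayed below in all 5 parts, by -4.70 to -15.0 points, and in the highest part the shares were 90.4% (88.2 to 92.1) and 95.1% (94.1 to 95.9). Both classes thus met in the highest part by total signal and not by maximum signal or width. Restricted regions with H3K27ac had a median width of 2205 bp and a median total signal of 71260.5, against 1452 bp and 30728 without it. Distance to genes hardly separated them, with 66.6% and 65.4% within 50 kb of a protein-coding TSS. Across the 2540 regions with both marks, maximum H3K18la and maximum H3K27ac signal had a Spearman rho of 0.56, given as a description since both lists share the tissue, the assay and local mappability.

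**Figure D1:**
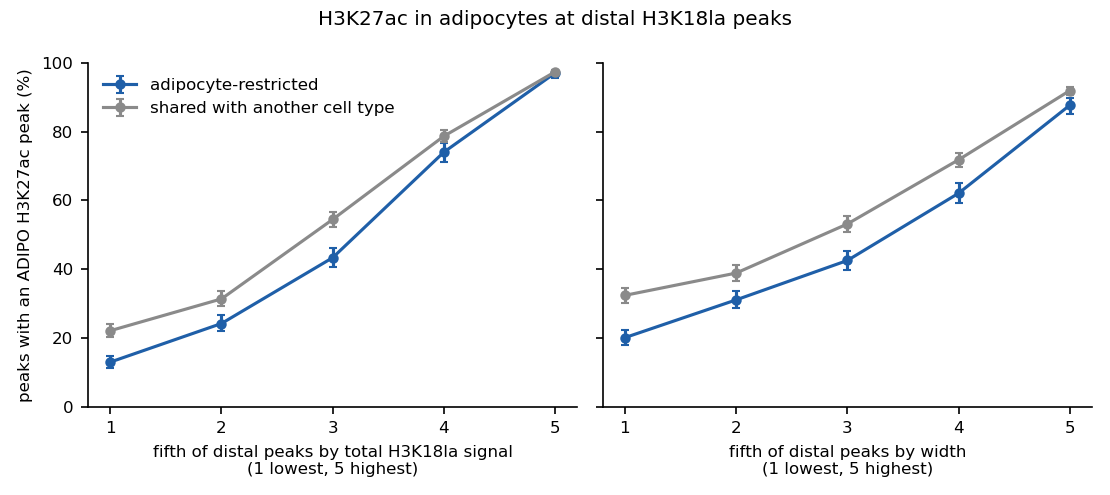
Share of distal ADIPO H3K18la peaks with an ADIPO H3K27ac peak (y axis, percent) in 5 equal parts by total signal (left) or width (right). Points are shares with 95% Wilson intervals, blue for adipocyte-restricted regions and grey for shared distal peaks; the share climbs from 12.97% to 97.1% in restricted regions with total signal, and both classes meet in the highest part by total signal but not by width.

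A gap in the same direction was seen in other lineages when restricted distal sets were built by the same rule with lists of other lineages as exclusion. H3K27ac of the own cell type was listed at 29.7% of 5127 ESC-ser-lineage restricted regions, 55.7% of 12128 GAS-lineage restricted regions and 24.4% of 7441 PIM-lineage restricted regions. Each lay below the shared distal peaks of its own list, with differences of -6.19 (-8.08 to -4.29, ESC-ser), -7.07 (-8.32 to -5.81, GAS) and -20.7 (-22.0 to -19.3, PIM) percentage points, so that the size of the gap varied. The H3K27ac lists differ in size, from 26.97 Mb in PIM and 53.8 Mb in ADIPO to 196 Mb in GAS, so the shares are not comparable between cell types and are given side by side.

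H3K27me3 in the 7 other cell types asks whether chromatin marked by H3K18la in adipocytes is under Polycomb elsewhere. It was listed at 5.94% of restricted regions in ESC-ser, 12.1% in ESC-2i, 8.14% in GAS, 4.71% in MB, 10.7% in MT, 5.40% in BMDM and 5.87% in PIM. The comparison was with shared distal peaks that likewise lacked H3K18la in the cell type at hand. In those peaks the shares were 8.15%, 16.6%, 7.98%, 3.02%, 7.71%, 8.12% and 10.5%, in the same order. Restricted regions were lower in both stem cell types and both macrophage types, with differences of -2.21 (ESC-ser), -2.71 (BMDM), -4.53 (ESC-2i) and -4.67 (PIM) percentage points. They were higher in myoblasts, by 1.70 (interval 1.04 to 2.37), and in myotubes, by 2.94 (1.83 to 4.04), while the difference of 0.16 in whole muscle (-1.07 to 1.33) lay within counting error. This comparison is tied to the selection: a shared peak that lacks H3K18la in one cell type has it in another by the rule, and for MB and MT 81.0% and 67.6% of the comparison peaks had it in another muscle cell type. With comparison peaks that lacked H3K18la in the whole lineage, an alternative chosen after seeing the data, the differences were 0.78 in MB (-0.44 to 1.83) and 1.40 in MT (-0.35 to 2.99), within counting error, and -1.58 in GAS (-3.32 to -0.0011). In the stem cells and macrophages they were -2.20 to -4.79.

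Over the 7 cell types the mean difference was -1.33 ± 2.99 percentage points (SD over cell types, n = 7), positive in 3 of 7, with p = 0.297 (exact two-sided sign-flip permutation test; Benjamini-Hochberg-adjusted 0.297 over 3 tests). The difference was thus smaller than its spread between cell types. The 7 cell types fall into 3 lineages (stem, muscle and macrophage), within which the signs agreed. The test treats these related cell types as independent units. By bases, the share of restricted sequence under H3K27me3 was 1.66 times the share of the genome under it in MB, 1.52 times in MT and 1.79 times in ESC-2i, and 1.11 to 1.21 times in the other 4. In shared distal peaks without H3K18la the corresponding values were 0.94 in MB, 0.97 in MT and 2.45 in ESC-2i, and 1.05 in GAS, 1.51 in ESC-ser, 1.84 in BMDM and 2.06 in PIM. Within the cell types assayed as nuclei the mean difference was -0.52 (p = 0.812, same exact permutation test). Which comparison is chosen decides the sign: against all shared distal peaks the mean difference was 0.19 (p = 0.891, same exact permutation test), and against peaks lacking H3K18la in the lineage it was -2.07 (p = 0.0781, same exact permutation test).

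Of the 5773 regions, 4294 (74.4%) had no H3K27me3 peak in any of the other cell types, 708 had it in 1, and 219 (3.79%) had it in at least 4. Stem cells held it at 14.4% of regions, muscle cells at 15.6% and macrophages at 8.18%. H3K27me3 elsewhere was more frequent at regions with ADIPO H3K27ac (30.0% of 2540) than at those without (22.2% of 3233), the former being wider. Only 19 regions carried H3K27me3 in all 7. Named after their nearest gene, the 5 of largest total signal lay near Tcf20 (446438), Rtn4rl2 (204533), Twist1 (178009), Fam69c (168165) and Lipg (128314). Twist1 encodes a helix-loop-helix factor of mesenchyme, and its region of 2566 bp, 8044 bp from the TSS, also had ADIPO H3K27ac.

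Active marks at these regions in other cell types were scarce except H3K27ac in whole muscle. H3K27ac was listed at 0.24% of restricted regions in ESC-ser, 0.14% in BMDM, 0.92% in PIM and 15.04% in GAS. Shared distal peaks without H3K18la there had 0.81%, 2.57%, 2.25% and 23.3%. The GAS H3K27ac list covers 7.98% of the genome and covered 11.0% of restricted sequence, 1.38 times its genomic share. In the other 3 cell types coverage was 0.05 to 0.30 times the genomic share. GAS H3K27ac was equally frequent at restricted regions with (15.4%) and without (14.8%) ADIPO H3K27ac. H3K4me3 was listed at 0.16% of regions in ESC-ser, 0.55% in ESC-2i, 1.82% in PIM and 3.33% in GAS, against 0.46%, 1.75%, 4.63% and 8.98% of the comparison peaks. By bases its coverage of restricted sequence was below its genomic share in all 4, and 0.68 times that share in GAS. The rule left out promoters and all H3K18la peaks of these cell types, which the genomic shares count. These ratios, for H3K4me3 and H3K27ac alike, are thus not independent of the selection.

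For both active marks restricted regions were lower in 4 of 4 cell types. The comparison peaks carry H3K18la in at least 1 other cell type by the rule, often one of the same lineage, so this direction is not independent of the selection. The mean difference was -3.15 ± 3.50 percentage points for H3K27ac and -2.49 ± 2.35 for H3K4me3 (SD, n = 4). Without GAS both means were -1.44. Each had an exact sign-flip permutation p of 0.125, the smallest that 4 cell types allow, and 0.188 after adjustment. Against peaks without H3K18la in any cell type of the lineage the means were -2.69 and -2.83, again lower in 4 of 4, and the H3K27ac difference in BMDM shrank from -2.43 to -0.32. The H3K4me3 difference was then -0.09 in ESC-ser (-0.26 to 0.07), within counting error, and in GAS it went from -5.65 to -8.26. All told, 3457 regions (59.9%) overlapped no listed peak of the 3 marks in any other cell type, and 1419 of these carried H3K27ac in adipocytes. Whole muscle is a mixture of cells, in which fewer marked cells and less of a mark per cell cannot be told apart.

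**Figure D2:**
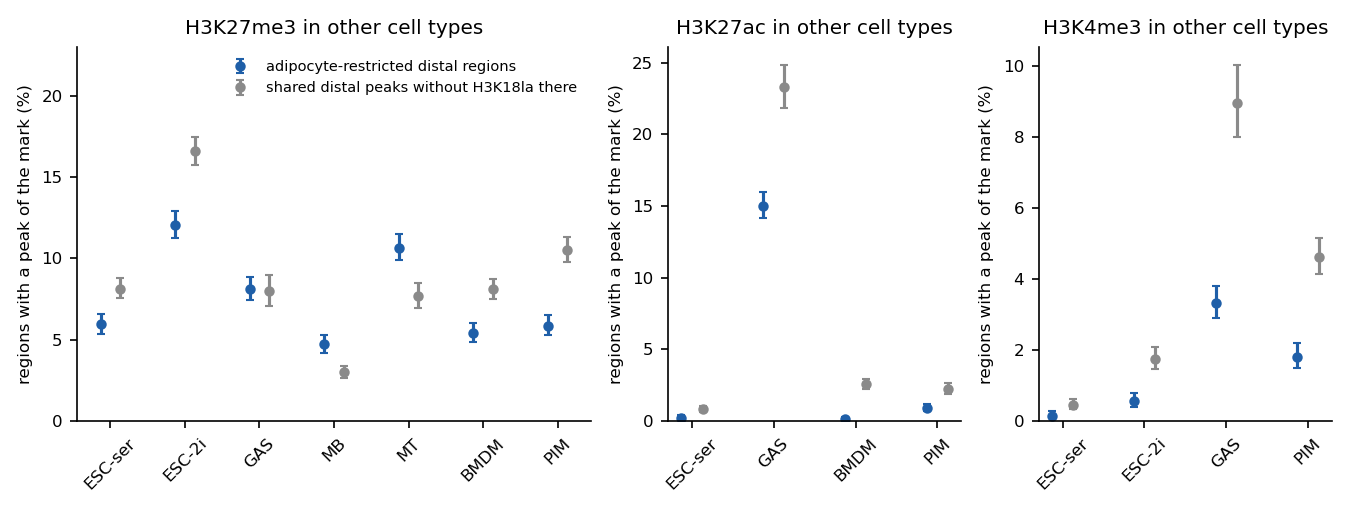
Share of regions with a peak of H3K27me3 (left), H3K27ac (middle) or H3K4me3 (right) in each other cell type (x axis), in percent with 95% Wilson intervals. Blue points are the adipocyte-restricted regions and grey points the shared distal peaks that lack H3K18la in the cell type shown; for H3K27me3 blue lies above grey in MB and MT, below it in ESC-ser, ESC-2i, BMDM and PIM, and the intervals overlap in GAS.

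Each region was assigned to the protein-coding gene with the nearest TSS, a convention of distance that does not say which gene a region acts on. The 5773 regions had 2971 nearest genes, 14.3% of the 20780 protein-coding genes on these chromosomes. Of these, 1798 genes were nearest to 1 region, 603 to 2, and 570 to at least 3, which is 2.74% of all genes. An ADIPO H3K27ac peak was at a promoter of 47% of all protein-coding genes. It was at 43.8% of genes with no restricted region, 63.4% of genes with 1, 68.3% with 2, 71.2% with 3 to 4 and 75.9% with 5 or more. Median gene length rose along the same order from 15230 to 140036 bp, and its part in this was not tested.

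Promoters of these nearest genes carried H3K27me3 elsewhere more often than those of other genes. In ESC-ser the share was 25.6% for genes with no restricted region and 56.5% for genes with 5 or more. In PIM it went from 25.2% to 54.6% and in GAS from 22.97% to 34.3%. In MB it was 12.5% with no region, 13.1% with 1 and 22.2% with 5 or more. The MT shares were 19.4%, 19.7% and 29.2% in the same order. Median gene length rose along this order too, and its part in the trend was not tested. Genes nearest to restricted regions only were set beside genes nearest to shared distal peaks only. Promoter H3K27me3 was listed at 31.2% of the former 1447 genes and 19.7% of the latter 2457 genes in GAS, 25.2% and 16.2% in MT, 16.2% and 11.8% in MB, 34.1% and 33.7% in ESC-ser, 29.4% and 26.3% in ESC-2i, 23.4% and 21.6% in BMDM, and 33.9% and 31.1% in PIM. The gaps were widest in GAS and MT, the cell types whose H3K18la peaks most of the shared distal peaks overlapped by the rule, and they were not tested.

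Genes of adipocyte identity had restricted regions nearby more often than genes at large, without every leading gene being among them. At least 1 region was nearest to 15 of 30 listed genes (50%, 95% interval 33.2 to 66.8) against 14.3% of all protein-coding genes, with 60 regions in all. Of these, 22 had H3K27ac, 36.7% against 44.0% of all restricted regions. Shared distal peaks were nearest to 16 of the 30 genes (53.3%, 87 peaks) against 19.2% of all protein-coding genes, and the difference between the classes was not tested. With the 5000 peaks of largest total signal in each list the restricted regions were nearest to 9 of the 30 (30%), against 4.82% of all protein-coding genes. Ebf1 had 20, Pparg 7, Cd36 (a fatty acid transporter) 6, and Ebf2, Zfp423 and Acvr1c 5 each. Lep, Tle3 and Car3 had 2 each, and Cebpa, Cebpd, Retn, Lpl, Nr3c1 (the glucocorticoid receptor) and Rxra (the partner of PPARγ) 1 each. None was nearest to Adipoq, Plin1, Cidec, Cfd or Fabp4, although each of these had H3K18la at its promoter.

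Regions of one gene could differ in the second mark. All 7 regions of Pparg lay within the gene, 3028 to 12854 bp from a TSS, and 1 of them had H3K27ac. That region, chr6:115365378-115370463, spans exon and intron, is 5086 bp wide and had a maximum signal of 145, whereas the other 6 had maxima of 46 to 74. Of the Ebf1 regions 7 of 20 had H3K27ac, with maxima of 40 to 270, and another 21 shared distal peaks had Ebf1 as nearest gene. Both Lep regions had H3K27ac, with maxima of 210 and 186, and H3K27me3 covered part of them in 2 and 4 other cell types. The region nearest to Lpl, which encodes the lipase that frees fatty acids from circulating lipoproteins, was chr8:68857821-68863027. It lay between genes 17464 bp from the TSS, had a maximum of 663 and carried H3K27ac. Beside it, between Ints10 and Lpl, lay a restricted region of 23301 bp (chr8:68831779-68855079) with a total signal of 1036917, assigned to Ints10 by distance.

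Other metabolic lists showed the following. Of fatty acid and triglyceride synthesis genes, 12 of 25 were nearest to a region, among them Acaca with 8, Me1 with 6 and Gpam with 4; these encode a carboxylase, malic enzyme and an acyltransferase at the start of lipid synthesis. Fasn and Acly had none. Of insulin signalling and glucose uptake genes, 12 of 21 were, led by Pik3r1 with 15, the regulatory subunit of phosphoinositide 3-kinase, and including Foxo1 with 4, while the glucose transporter gene Slc2a4 had none. Of lipid droplet and lipolysis genes, 8 of 28 were, including Acsl1 with 7, Abhd5 with 4, and Pde3b and the niacin receptor gene Hcar2 with 3 each. Of adipokine and secreted factor genes, 6 of 19 were, with Nampt at 6, Igf1 at 4 and Vegfa at 3, the Igf1 and Vegfa regions reaching maxima of 480 and 548. Genes on chromosome X were outside the chromosomes used.

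Of the 20 thermogenic genes, 11 were nearest to a region, including Ebf2 (5), Ppargc1a (4), Zfp516 (4) and Kcnk3 (3). Ucp1 had no region, and neither mark was listed at its promoter. Of 27 nuclear receptor genes, 10 were, with Pparg at 7, Esr1 at 6 and Thrb at 5. Lists of other cells ranged from 0 of 10 (skeletal muscle), 1 of 11 (macrophage) and 1 of 9 (lymphocyte) over 3 of 12 (smooth muscle and pericyte), 3 of 10 (stem cell) and 4 of 12 (endothelial) to 4 of 11 (mesothelial) and 5 of 12 (stromal progenitor). All 7 adipocyte lists and 5 of these 8 lists of other cells thus lay above the 14.3% of all genes. Shared distal peaks, against a share of 19.2% of all genes, were nearest to at least as many genes in each of the 7 adipocyte lists, with 40.7% (nuclear receptors) to 71.4% (insulin signalling and glucose uptake), and these differences were not tested. Distances varied widely: the region assigned to the macrophage factor gene Spi1 lay 3226 bp away, and both regions assigned to the endothelial cadherin gene Cdh5 lay 618749 and 632255 bp away. The 6 regions of the stromal list were all without H3K27ac, which was at 44.0% of all restricted regions. It was at 2 of 6 regions of the endothelial list, 3 of 6 of the mesothelial list and 6 of 27 of the nuclear receptor list. Lrrn4, a mesothelial gene, was the only one of these markers with 3 regions, at 9921 to 14624 bp, 2 with H3K27ac and a highest maximum of 418, although neither mark was at its promoter.

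Counting a gene when a region lay in its body or within 50000 bp raised adipocyte identity to 21 of 30 (70%) and all protein-coding genes to 25.0%. By that count endothelial and skeletal muscle markers had 0 of 12 and 0 of 10, macrophage and lymphocyte markers 2 of 11 and 2 of 9, stem cell markers 3 of 10, stromal progenitor markers 4 of 12, smooth muscle and pericyte markers 4 of 12 and mesothelial markers 5 of 11.

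**Figure D3:**
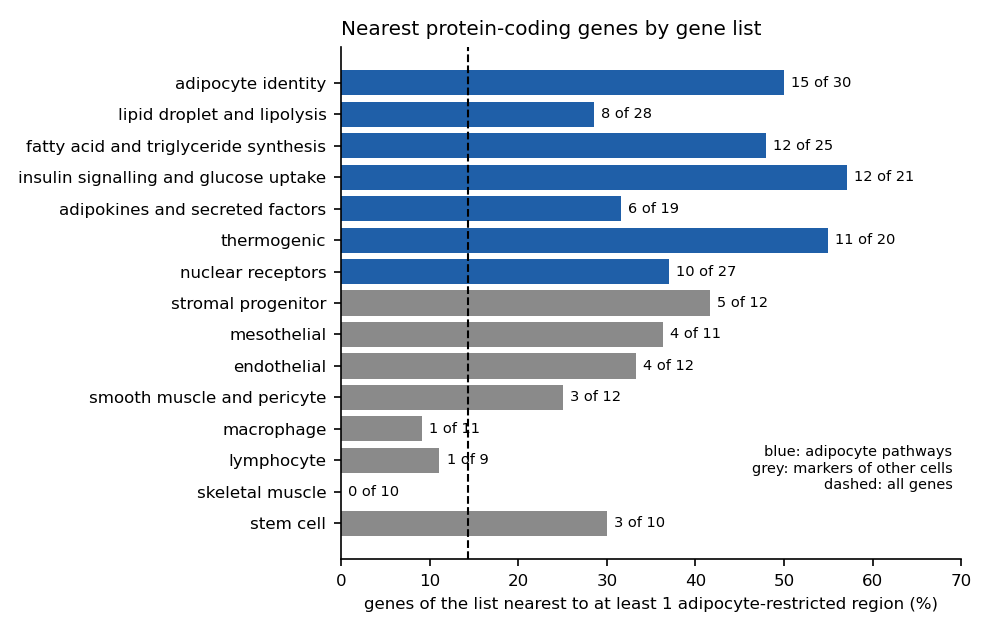
Share of each gene list (x axis, percent) that is the nearest protein-coding gene of at least 1 adipocyte-restricted region, with the counts beside the bars. Blue bars are adipocyte pathways, grey bars markers of other cell types, and the dashed line is the 14.3% of all protein-coding genes; the blue bars reach 28.6% to 57.1%, the grey ones 0% to 41.7%.

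The genes with most restricted regions were mostly long. Bmper, which encodes a secreted binder of bone morphogenetic proteins, had 28, of which 16 carried H3K27ac, 3837 to 327484 bp from the TSS and with maxima of 39 to 889. Angpt1, the ligand of the endothelial receptor Tek, had 22 with H3K27ac at 5. Ebf1 followed with 20. Trabd2b, which encodes a protease that cuts Wnt proteins, and Fgfr2, a fibroblast growth factor receptor, had 18 each, with H3K27ac at 8 and 9, as had the gene model Gm11146 with H3K27ac at 2. Slit3 (a secreted guidance ligand), Lrmda and Tenm4 (a teneurin) had 17 each, with H3K27ac at 11, 7 and 9.

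Ghr, the growth hormone receptor gene, had 16 regions, 4 with H3K27ac and a median maximum of 54.5, the lowest of the 15 genes. Tshz2 and Pik3r1 had 15 each, Zeb2 and Arid1b 14 each, and Nfia 13. All 15 genes had H3K18la at a promoter in ADIPO, and all but Gm11146 had H3K27ac there, against 76.9% and 75.9% of the 216 genes with 5 or more regions. H3K27me3 elsewhere covered 15 of the 17 Slit3 regions and 14 of the 18 Fgfr2 regions, but none of the 22 at Angpt1, 18 at Gm11146, 16 at Ghr or 14 at Zeb2. In between were 9 of 17 at Lrmda, 8 of 17 at Tenm4, 7 of 18 at Trabd2b and 4 of 28 at Bmper. Ebf1, Tshz2, Pik3r1, Arid1b and Nfia had 1 to 3 such regions each. The share over all restricted regions was 25.6%. Shared distal peaks assigned to the same genes ranged from 0 at Fgfr2 to 23 at Pik3r1 and Arid1b, so that all 18 distal ADIPO H3K18la peaks nearest to Fgfr2 were adipocyte-restricted.

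The regions of largest total signal were broad, and all 10 carried H3K27ac. By total signal, the first was a 24815-bp intergenic region at chr11:35717615-35742429, 27055 bp from the TSS of Pank3 (a pantothenate kinase gene), with a total signal of 1797190, a maximum of 718 and H3K27me3 in 5 other cell types. It was followed by intergenic regions assigned to the homeobox gene Evx1 (16003 bp), to Ints10 beside Lpl, to Cdc73 (15849 bp) and to Cd180 (17071 bp, 231637 bp from the TSS). An intronic region of Trabd2b (chr4:114560549-114570507) had a total signal of 966423, and a region across exon and intron of Patj, a tight junction gene, 930959. The last of the 10 lay near Trarg1, a regulator of glucose transporter traffic, near Pemt, which encodes a phosphatidylcholine-making enzyme, and in an intron of Fry.

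By maximum signal the order differed. The highest maximum, 1992, belonged to a peak only 66 bp wide on chromosome 17 (chr17:93046438-93046503, nearest gene Adcyap1), without H3K27ac. The sixth, 778 near Ccng2, was 1598 bp wide and also lacked it. The other 8 had it: Patj (1247), a region assigned to Tas2r119 (1173), Pemt (962), an intronic region of Bmper (889), Trabd2b (772), an intronic region of Trp63 (736), Pank3 (718) and Cdc73 (705).

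Restricted regions occurred in groups. At a stitching distance of 12.5 kb, 2370 of 5773 (41.1%, interval 39.8 to 42.3) lay in a group of at least 2, which gave 939 clusters, 296 of them with 3 or more regions and 48 with 5 or more. Shared distal peaks, which are denser (3.95 against 2.34 per Mb), were grouped in 56.1% of cases. H3K27ac was listed at 42.1% of lone restricted regions, 46.8% of clustered ones and 50% of the 1084 in clusters of 3 or more. For shared distal peaks the shares were 57.4% alone, 62.4% clustered and 62.4% in clusters of 3 or more. Whether neighbouring regions were 1 domain divided at peak calling was not tested.

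The 7 large clusters described here, of 7 to 9 regions each, held at most 1 other adipocyte H3K18la peak. Smoc1, a secreted calcium-binding protein gene, carried 9 regions over 56155 bp (chr12:81061173-81117327), 5 with H3K27ac. Hivep3, a zinc finger gene, had 8 regions over 55448 bp of its body, 2 with H3K27ac. A cluster of 8 regions over 27982 bp on chromosome 14 overlapped no protein-coding gene and was assigned to Cdca2 at 69362 to 96323 bp. Further clusters of 7 lay between genes near Glrx3 and C9orf72, in Cnnm2, and in Mapk4 next to Mro. The Mro cluster contained 1 such peak and the other 6 contained none. The count of 7 regions was a tie in which clusters of larger summed signal came first, and the 3 other clusters of 7 held more: 2 other ADIPO H3K18la peaks at Bmper and 3 each at Slc1a3 and Dlc1. Of their 7 regions, H3K27ac was at 5, 3 and 1, and H3K27me3 elsewhere at 3, 3 and none.

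H3K27me3 in at least 1 other cell type touched 6 of 9 regions at Smoc1, 8 of 8 at Hivep3 and 8 of 8 in the Cdca2 cluster, against 25.6% of all restricted regions. It touched 1 of 7 near Glrx3, 2 of 7 near C9orf72, 4 of 7 near Mro and none of 7 at Cnnm2. Regions of a cluster can lie in a single H3K27me3 domain and are not independent of each other. The Cdca2 cluster, 4 of 8 with H3K27ac in fat, thus had H3K27me3 on all its regions in at least 1 other cell type, while the Cnnm2 cluster, 5 of 7 with H3K27ac, had no H3K27me3 peak on it in any of them.

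**Figure D4:**
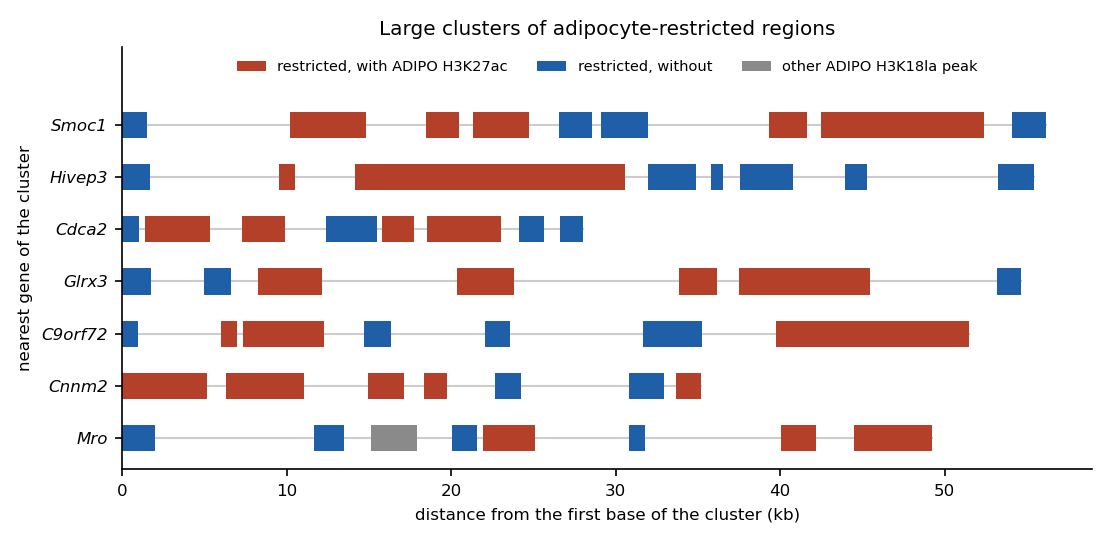
The 7 described clusters of 7 to 9 adipocyte-restricted regions, 1 per line and named by nearest gene. The x axis is the distance in kb from the first base of the cluster; red blocks are restricted regions with ADIPO H3K27ac, blue blocks those without, and the grey block is the only other ADIPO H3K18la peak in these 7, in the Mro cluster.

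Sequence features were read in the 300-bp window around the point of maximum signal, where the rule had used none of them. GC content was 47.6% ± 5.56 (SD over regions) in restricted regions and 50.4% ± 5.71 in shared distal peaks. CpG dinucleotides were at 0.21 of the number expected from base composition. The value was 0.23 in shared distal peaks and in ESC-ser-lineage restricted regions, and 0.20 in GAS-lineage and PIM-lineage ones. In 32851 RefSeq promoter windows of the same length, a kind of sequence that the rule left out, it was 0.57. Repeat-masked bases made up 15.3% of restricted windows, 12.8% of shared ones and 30.9% of ESC-ser-lineage restricted ones.

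The relaxed C/EBP motif was more frequent in the restricted regions than in those of other lineages. TTGCNNAA was present in 1352 of 5773 windows (23.4%, interval 22.3 to 24.5). It was present in 19.3% of shared distal adipocyte peaks, 15.6% of PIM-lineage, 11.6% of GAS-lineage and 11.3% of ESC-ser-lineage restricted regions and 10.8% of promoters. Restricted regions were 4.08 percentage points above shared peaks (2.74 to 5.43). The share was 26.8% at regions with H3K27ac and 20.8% at those without. The matches gathered at the signal maximum: within 100 bp of it there were 1.05 matches per kb, and 0.53 per kb at 400 to 600 bp. The corresponding ratio of near to far was 1.99 in restricted and 1.82 in shared adipocyte regions, 1.35 in PIM-lineage, 0.97 in GAS-lineage and 0.95 in ESC-ser-lineage regions. The strict palindrome TTGCGCAA was rare, in 12 windows (0.208%, 0.119 to 0.363) and 0.113% of shared peaks, and the relaxed form was searched after those counts had been seen. The difference of the palindrome from shared peaks, 0.09 percentage points (-0.03 to 0.26), lay within counting error. The palindrome was in 0.134% of PIM-lineage (0.073 to 0.247), 0.0975% of ESC-ser-lineage and 0.0577% of GAS-lineage regions, and in 0.183% of promoters (0.142 to 0.235).

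The glucocorticoid receptor motif, GNACA and TGTNC separated by 3 bases, showed a like pattern at lower frequency. It was present in 139 restricted windows (2.41%, 2.04 to 2.84) and in 2.02% of shared distal peaks, against 1.01% of GAS-lineage, 0.605% of PIM-lineage and 0.351% of ESC-ser-lineage restricted regions and 0.475% of promoters. The difference from shared peaks, 0.38 percentage points (-0.09 to 0.88), lay within counting error. It was in 3.15% of regions with H3K27ac and 1.82% of those without. Near the signal maximum it was 4.91 times as dense as at 400 to 600 bp in restricted regions, 3.82 times in shared distal peaks, 2.00 times in GAS-lineage, 1.49 times in PIM-lineage and 0.75 times in ESC-ser-lineage regions. The nuclear receptor repeat bound by PPARγ and its partner, AGGNCA and AGGNCA with 1 base between, was present in 54 windows (0.935%) and in 1.16% of shared peaks, 0.800% of ESC-ser-lineage, 0.627% of GAS-lineage and 0.833% of PIM-lineage regions and 0.381% of promoters.

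Motifs known from other lineages were compared in the same way. The AP-1 motif TGANTCA was in 9.41% of restricted windows, 12.98% of shared adipocyte peaks and 28.6% of PIM-lineage regions, and the PU.1 motif GAGGAAGT in 1.63%, 2.24% and 10.2%. The E-box CAGCTG was in 17.7% of restricted, 23.5% of shared and 24.6% of GAS-lineage windows, and in 17.6% of ESC-ser-lineage windows, 16.4% of PIM-lineage windows and 16.3% of promoters. The octamer ATGCAAAT was in 1.35% of restricted, 1.28% of shared, 1.12% of GAS-lineage, 1.87% of PIM-lineage and 3.16% of ESC-ser-lineage windows. The early B-cell factor motif (TCCC and GGGA, 2 bases apart) was in 1.26% and the STAT5 motif TTCCNGGAA in 1.52% of restricted windows. These shares lay below the 1.70% and 1.78% of shared peaks and above those of the other lineages, which were 0.761% and 1.27% for ESC-ser, 1.15% and 1.33% for GAS, and 0.618% and 0.753% for PIM. The STAT5 difference from shared peaks, -0.25 percentage points (-0.66 to 0.17), lay within counting error, and for both motifs the intervals of restricted regions overlapped those of GAS-lineage and ESC-ser-lineage regions. The NF1 motif, TTGGC and GCCAA separated by 5 bases, was in 0 of 5773 restricted windows, which by a floor of 3 counts allows a share of up to 0.0520% (Wilson upper limit 0.0665%), and in 15 of 9730 shared ones (0.154%). It was rare in the other sets too, with 0.0195% of ESC-ser-lineage, 0.0134% of PIM-lineage and 0.0660% of GAS-lineage windows and 0.0365% of promoters. A match is a stretch of letters and does not show that a factor was bound.

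**Figure D5:**
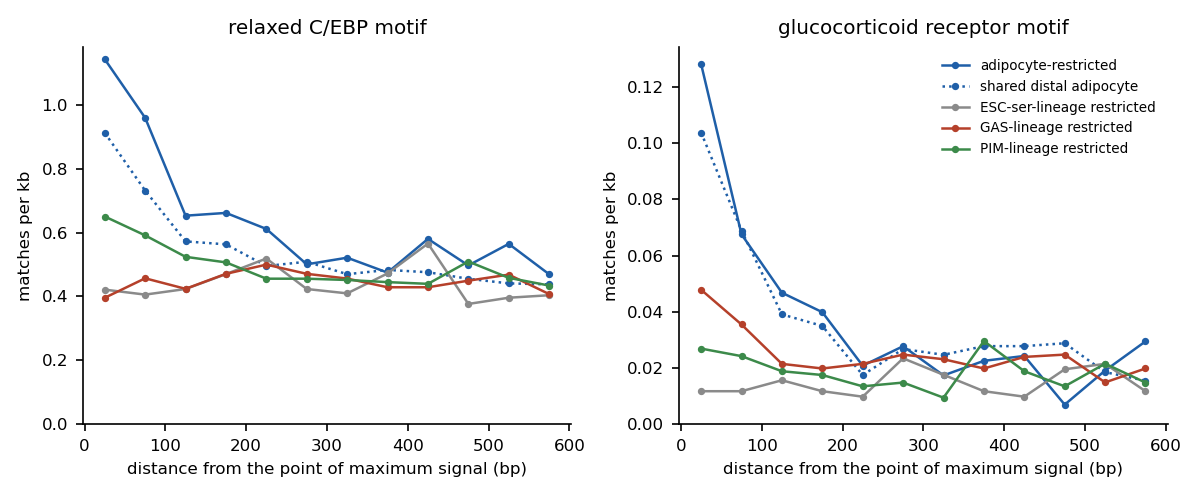
Density of the relaxed C/EBP motif (left) and the glucocorticoid receptor motif (right) in matches per kb (y axis) by distance from the point of maximum H3K18la signal (x axis, bins of 50 bp, both sides together). Lines are adipocyte-restricted regions (blue), shared distal adipocyte peaks (dotted blue) and regions restricted to the ESC-ser (grey), GAS (red) and PIM (green) lineages; the C/EBP density in restricted regions is 1.05 per kb within 100 bp and 0.53 per kb at 400 to 600 bp.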

How the data were processed

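CUT&Tag peak lists of 24 groups (a cell type and a mark, 41 samples) were analysed. According to the submitters' processing notes and the methods, reads were trimmed with Trim Galore 0.6.6, aligned to mm10 with Bowtie2 2.4.4, turned into coverage with SAMtools 1.13 and bedtools 2.30, merged over replicates, and peaks were called with SEACR 1.3 (stringent, top 1%, no control). Each deposited signal column (total and maximum per peak) holds whole numbers of unscaled coverage, so signal was compared within a list only. The methods state that peaks on blacklisted regions were dropped; whether this was done before deposit, and how duplicates were handled, is not given in the sources used here, and the lists hold no depth; the read numbers that the study gives per sample were not used here.

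Promoters and genes came from GENCODE vM21, sequence from GRCm38.p6. Overlap meant 1 bp. Differences between shares carry 95% Newcombe intervals. The cell type was the unit of the 3 exact two-sided sign-flip permutation tests, and cell types of the same lineage are not independent units. Nearest genes, stitching at 12.5 kb and 300-bp windows were computed in Python 3.11.15 with numpy 2.4.6, pandas 2.3.3 and scipy 1.17.1, and checked on simulated intervals against bedtools 2.31.1. The members, gene lists, motifs and tests were chosen with earlier results of these data known. Genes named are the list genes nearest to a member, the 15 genes with most members, the 10 members of largest total and of largest maximum signal, and the 8 largest clusters, of which 1, like a few list genes, is not reported here; regions under H3K27me3 in all 7 other cell types were named after their values were seen. The alternatives tried are given at the end.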

Additional observations from a re-analysis of the deposited data

Results flagged for a closer look

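The share of restricted regions with H3K27ac in another cell type was 15.04% in GAS, far from the 0.14% to 0.92% of the other 3 cell types. The number of peaks that would have counted as restricted without a given H3K18la list was 1885 for GAS, far from the 43 to 678 of the other 6 lists. That count is made of overlaps that the rule itself used, and the GAS list is the longest of them (36322 peaks). It describes the selection and is not a separate result. For the H3K27ac share, chance alone flags about 1 in 20 such groups.

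The H3K27me3 difference between restricted and comparison regions was positive in all 3 muscle cell types, with a mean of 1.60 percentage points, and negative in both stem cell types (mean -3.37) and both macrophage types (mean -3.69). The difference between lineages was not tested, and in GAS the value lay within counting error. The comparison peaks are tied to the rule, since 68.97% of shared distal peaks overlapped a GAS and 52.3% an MT H3K18la peak. With comparison peaks lacking H3K18la in every cell type of the lineage, chosen after seeing the data, the muscle values were 0.78 in MB, 1.40 in MT and -1.58 in GAS, the former 2 within counting error.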

How the results depend on the processing

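Of 106 alternative values, 87 kept their direction and stayed within the intervals or limits set for a change. For the mean differences over cell types, the limit was the sign and whether the permutation test reached significance. The active marks could not reach it with so few cell types, so only a change of sign could have counted. Against all shared distal peaks their means were -20.8 (H3K27ac) and -12.6 (H3K4me3) percentage points and still counted as unchanged. With the 5000 peaks of largest total signal in each list, 1464 regions were restricted, 47.1% carried ADIPO H3K27ac, the difference from shared peaks was -14.3 percentage points, 27.4% were clustered and 30% of the adipocyte identity genes, against 4.82% of all protein-coding genes, were nearest to a region. Requiring H3K27ac over at least 50% of a region gave 35.5% and -14.1, and keeping only peaks with a maximum at or above the list's median gave 70.8% and -12.1. The clustered share was 28.5% at 5000 bp, 52.3% at 25000 bp and 43.3% with promoters of protein-coding genes only. Identity genes with a region in the body or within 50000 bp were 70%, against 25.0% of all genes. The C/EBP palindrome fell to 0.0346% in windows centred on the peak rather than on its maximum, and the nuclear receptor repeat was at 1.78% in 600-bp windows. The relaxed C/EBP motif, added after the data were seen, ranged from 18.6% to 34.9%.

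The mean H3K27me3 difference turned positive, 0.19 (exact permutation p = 0.891), against all shared distal peaks, which include peaks with H3K18la in the cell type at hand. Leaving out each cell type gave -2.04 to -0.78 for H3K27me3, -4.02 to -1.44 for H3K27ac (-1.44 without GAS) and -3.22 to -1.44 for H3K4me3 (-1.44 without GAS), and 5816 to 7658 restricted regions when each list was not used. By bases covered, an alternative chosen after seeing the data, the means were -0.81, -1.88 and -1.24, and with comparison peaks free of H3K18la in the lineage, chosen likewise, -2.07, -2.69 and -2.83. With 4 cell types no test of the active marks could go below p = 0.125 (exact permutation). Read numbers per sample were not used here, and a peak absent from a list of 1 sample or of low coverage may still be marked.

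No paired analysis was possible because replicates were merged before peaks were called, so that the lists carry no replicate numbers.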
